A study of Mus musculus with 5 samples.

Results

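The enzymes that make serine and that pass its one-carbon unit through the folate cycle were examined in RNA-seq of neural stem cells (NSCs) and STO cells. They are 10 genes, Phgdh, Psat1, Psph, Shmt1, Shmt2, Mthfd1, Mthfd2, Mthfd1l, Aldh1l1 and Aldh1l2. They were chosen by symbol, out of 25415 genes, and are represented by 15 of 40201 RefSeq transcripts. All 10 passed the filter on low values. NSCs, isolated from the embryonic mouse cortex and kept for 5 to 8 passages, were grown on poly-L-ornithine and laminin in neural basal medium with EGF, bFGF, heparin and B27, and were sequenced in 2 replicates. STO cells, a thioguanine- and ouabain-resistant line of SIM mouse embryonic fibroblasts, were beyond passage 30, were grown in high-glucose DMEM with serum, glutamine and nonessential amino acids, and were sequenced in 3 replicates. The labels give the strain C57BL/6 for all 5 samples and name no genetic or drug treatment. For STO cells that strain does not match their description as a line of SIM mice, so a shared strain is not certain. Cell type, passage number and medium, including its amino acids, differed together, as strain may have, and cannot be told apart in this design. Nothing in the labels says that the replicates were separate cultures, and p-values then measure only the spread between these samples, which may be technical.

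Cells make serine from a phosphoglycerate of glycolysis. PHGDH oxidizes it, PSAT1 adds an amino group from glutamate, and PSPH removes the phosphate. The serine hydroxymethyltransferases, SHMT1 in the cytosol and SHMT2 in mitochondria, then split serine into glycine and a one-carbon unit carried on tetrahydrofolate. In mitochondria this unit is oxidized by MTHFD2 and released as formate by MTHFD1L, and in the cytosol MTHFD1 puts formate back on folate for the synthesis of purines and thymidylate. ALDH1L1 in the cytosol and ALDH1L2 in mitochondria instead oxidize formyltetrahydrofolate to CO2. In the nervous system PHGDH and ALDH1L1 are known for their presence in radial glia and astrocytes.

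The values are FPKM, fragments per length of transcript and per total of mapped fragments, so levels can be compared between genes per length. Effective fragments, the Poisson count that the deposited confidence intervals would imply, came to between 15223341 and 22271895 per sample. Replicates of a cell type had a Pearson's r of 0.994 to 0.996 across the 12293 genes tested, which are not independent of each other. The labelled cell types matched their markers, except that Lum, a fibroblast marker, was low or absent in both. Of the neural stem cell markers, Sox2 was at 308 and 276 FPKM and Nes at 176 and 169 FPKM in the NSC samples, while in the STO samples Sox2 was listed at 0 and Nes was at 0.0724, 0.0442 and 0.038 FPKM. Pax6, Olig2, Fabp7 and Sox1 were also listed at 0 in all STO samples, and 7 fibroblast markers summed to 0.961 to 1.32 FPKM in NSCs and to 1159 to 1228 FPKM in STO cells. Of these 7, Lum was at only 0.278, 0.280 and 0.224 FPKM in the STO samples and did not pass the filter on low values.

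Of the 10 enzymes, 7 were higher and 3 lower in STO cells at an adjusted p under 0.05 (limma on log2(FPKM + 1), adjusted over all genes tested). Over all genes tested, 85.6% passed the same threshold, 41.9% higher and 43.7% lower in STO cells, so a call in itself says little about these enzymes. Their groups of samples did not overlap in any of the 10 cases, against 89.9% of all genes. The median absolute difference was 0.52 for the enzymes and 0.74 for all genes tested, on the log2(FPKM + 1) scale. With an absolute difference of at least 1 required as well, 2 enzymes remained, Mthfd2 higher and Aldh1l1 lower, against 38.4% of all genes, 17.1% higher and 21.3% lower. Of the 10 enzymes, 7 differed by less than the median gene, and Mthfd1l, Mthfd2 and Aldh1l1 by more.

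**Figure D1:**
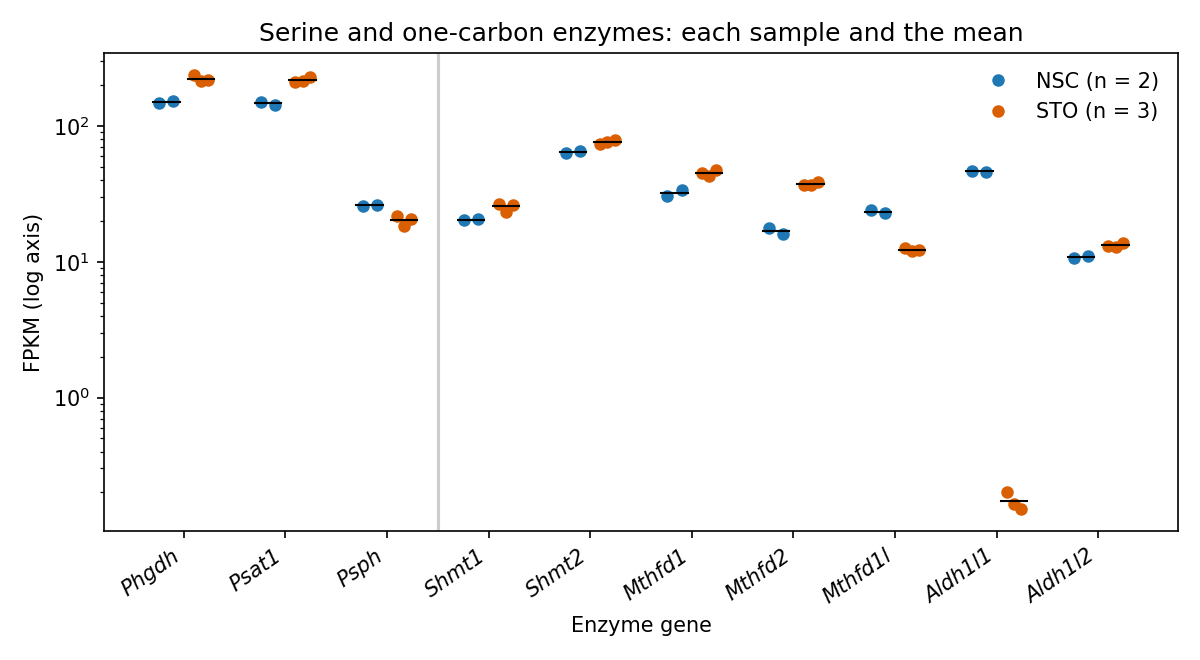
FPKM (log axis) of each enzyme gene in every sample, NSC in blue (n = 2) and STO in orange (n = 3), with the mean as a black line and the serine synthesis genes left of the grey line. Phgdh and Psat1 are the highest genes in both cell types, and Aldh1l1 falls from 46.4 to 0.172 FPKM.

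Phgdh and Psat1 were among the more abundant transcripts of both cell types. Phgdh, the first enzyme of the pathway, was at 149 and 152 FPKM in the NSC samples and at 239, 213 and 220 FPKM in the STO samples. Every STO sample was above both NSC samples. The mean was 151 ± 2.30 FPKM (SD, n = 2) in NSCs and 224 ± 13.2 FPKM (SD, n = 3) in STO cells, a ratio of 1.49, and the log2 difference was 0.57 with an SE of 0.068 (limma adjusted p = 0.000278). In NSCs 96.4% and in STO cells 98.0% of the genes tested were at or below the level of Phgdh. The gene lies on the minus strand of chromosome 3 of mm9 (chr3:98117094-98143892), and its longest coding transcript in GENCODE vM1, the annotation of the same assembly, has 12 exons.

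The value of Phgdh carries an uncertainty that is not in its SD. Its coding sequence of 1602 bases aligned elsewhere in the genome in 19 stretches of at least 300 bases at 90.4% to 98.8% identity. Such copies can take or give reads, and the counting settings for reads with several matches are not given in the sources used here. Among the other enzymes, Psat1 had 1 such stretch, of 769 bases at 91.8% identity on chromosome 11, and the remaining 8 had none.

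Psat1, the aminotransferase of the pathway, was also higher in STO cells. It was at 151 and 144 FPKM in the NSC samples and at 211, 214 and 228 FPKM in the STO samples, with no overlap. The means were 147 ± 4.97 FPKM (SD, n = 2) and 218 ± 9.23 FPKM (SD, n = 3), and the log2 difference was 0.56 with an SE of 0.063 (limma adjusted p = 0.000198). Within a sample, Psat1 stood to Phgdh in a ratio of 1.01 and 0.944 in NSCs and of 0.882, 1.00 and 1.04 in STO cells, so that the levels of these neighbours in the order could not be separated in either cell type. Of the 2 listed Psat1 transcripts, the whole signal was assigned to NM_177420 (chr19:15979613-15999549, minus strand), and NM_001205339 was listed at 0 in all 5 samples.

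Psph, the phosphatase of the last step, was the one serine synthesis gene that was lower in STO cells. It was at 25.8 and 26.4 FPKM in the NSC samples and at 21.6, 18.5 and 20.7 FPKM in the STO samples. All STO values were below both NSC values, by a log2 difference of -0.35 with an SE of 0.074 (limma adjusted p = 0.00439). The ratio of Psph to Phgdh was 0.173 in each NSC sample and 0.0904, 0.0867 and 0.0943 in the STO samples. Without NSC replicate 1 the adjusted p of Psph was 0.0503 and without NSC replicate 2 it was 0.0615, so its call needed both NSC samples. Psph has 8 exons on the minus strand of chromosome 5 (chr5:130271434-130293129).

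Summed over these 3 genes, the serine synthesis transcripts came to 324 ± 2.26 FPKM (SD, n = 2) in NSCs and 462 ± 13.8 FPKM (SD, n = 3) in STO cells. The 10 enzymes together took 0.121% to 0.122% of all FPKM in the NSC samples and 0.169% to 0.172% in the STO samples.

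SHMT2 is the mitochondrial and SHMT1 the cytosolic entry of serine into the folate cycle, and both genes were slightly higher in STO cells. Shmt2 was at 63.1 and 65.5 FPKM in the NSC samples and at 73.6, 76.4 and 79.1 FPKM in the STO samples. The log2 difference was 0.24 with an SE of 0.056 (limma adjusted p = 0.00608). Shmt1 was at 20.2 and 20.6 FPKM in the NSC samples and at 26.9, 23.5 and 26.4 FPKM in the STO samples, a log2 difference of 0.31 with an SE of 0.071 (limma adjusted p = 0.00623). Neither gene's groups overlapped. The adjusted p of Shmt1 rose to 0.070 without NSC replicate 1 and to 0.056 without NSC replicate 2. Shmt2 lies on chromosome 10 (chr10:126954179-126959500) and Shmt1 on chromosome 11 (chr11:60602399-60624767), both on the minus strand.

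Shmt2 exceeded Shmt1 in every sample, by a ratio of 3.13 and 3.18 in NSCs and of 2.74, 3.26 and 3.00 in STO cells. The ranges of this ratio overlapped between the cell types. The mean log2 ratio differed by -0.076 (exact two-sided permutation test, p = 0.6, adjusted over 4 ratios p = 0.6). Of the 2 Shmt2 transcripts, NM_028230 was assigned 78.3% and 79.1% of the gene's FPKM in the NSC samples and 84.0%, 87.9% and 86.5% in the STO samples. When only this more abundant transcript was used, the sign of the difference in ratio turned, to 0.054.

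Mthfd2 had the largest rise of the 10 enzymes. It encodes the mitochondrial dehydrogenase and cyclohydrolase known for its expression in embryonic and proliferating cells. It was at 17.6 and 16.0 FPKM in the NSC samples and at 37.0, 36.7 and 38.7 FPKM in the STO samples. The lowest STO sample was thus above the highest NSC sample by more than the range within either group. The means were 16.8 ± 1.12 FPKM (SD, n = 2) and 37.5 ± 1.04 FPKM (SD, n = 3), a ratio of 2.23, and the log2 difference was 1.11 with a 95% interval of 0.96 to 1.26 (limma adjusted p = 5.45e-06). Of all genes tested, 65.4% had a smaller absolute difference. The gene has 8 exons on the minus strand of chromosome 6 (chr6:83255698-83267598).

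Mthfd1l, which follows Mthfd2 in the mitochondrial branch, went the other way. It was at 24.0 and 22.8 FPKM in the NSC samples and at 12.6, 12.0 and 12.2 FPKM in the STO samples, with no overlap. The mean fell from 23.4 ± 0.834 FPKM (SD, n = 2) to 12.3 ± 0.299 FPKM (SD, n = 3), and the log2 difference was -0.88 with an SE of 0.053 (limma adjusted p = 9.15e-06). The ratio of Mthfd2 to Mthfd1l was 0.733 and 0.701 in the NSC samples and 2.93, 3.05 and 3.16 in the STO samples, so the order of the pair turned between the cell types. The Mthfd1l value is a sum over 3 transcripts, and the split between them was less steady than the sum. NM_001170786 was assigned 21.3% of it in NSC replicate 1, 0 in NSC replicate 2 and 15.4% to 23.5% in the STO samples. The listed loci span chr10:6179460-6373466 on the minus strand.

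Mthfd1 encodes the cytosolic enzyme that joins formate to tetrahydrofolate and reduces the product further. It was at 30.5 and 33.9 FPKM in the NSC samples and at 44.8, 43.1 and 47.5 FPKM in the STO samples. Every STO sample was higher, by a log2 difference of 0.47 with an SE of 0.070 (limma adjusted p = 0.000778). Set against this cytosolic partner, Mthfd1l stood at a ratio of 0.787 and 0.673 in NSCs and of 0.282, 0.279 and 0.258 in STO cells. The ratio of Mthfd2 to Mthfd1 was 0.577 and 0.472 in NSCs and 0.825, 0.852 and 0.814 in STO cells. The mean log2 ratios differed by -1.42 and by 0.67, and each had p = 0.1 in the exact two-sided permutation test, the smallest p that 2 against 3 samples allow, or 0.133 adjusted over 4 ratios. Mthfd1 lies on the plus strand of chromosome 12 (chr12:77356219-77420807) and has 28 exons.

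**Figure D2:**
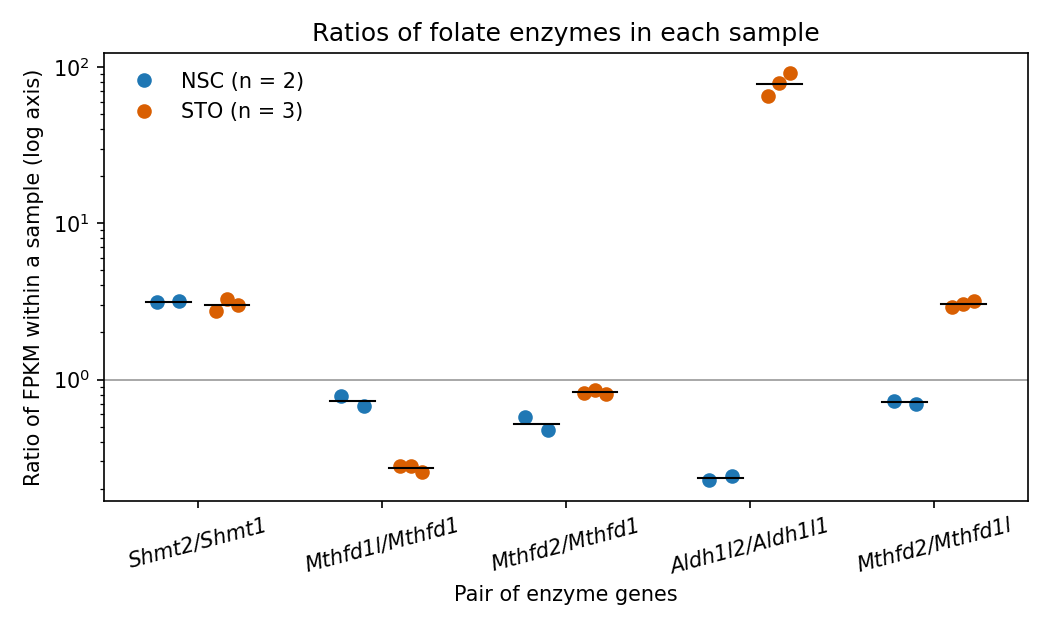
Ratio of FPKM between folate enzymes within each sample (log axis), NSC in blue (n = 2) and STO in orange (n = 3), with the geometric mean as a black line and a grey line at equal levels. The ratio of Shmt2 to Shmt1 overlaps between the cell types, while Mthfd2 to Mthfd1l and Aldh1l2 to Aldh1l1 lie on opposite sides of equality.

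Aldh1l1 had the largest difference of the 10 enzymes. ALDH1L1 removes one-carbon units from the cytosolic folate pool, and its gene is a widely used astrocyte marker. It was at 47.0 and 45.7 FPKM in the NSC samples and at 0.202, 0.164 and 0.150 FPKM in the STO samples. The mean in NSCs, 46.4 ± 0.859 FPKM (SD, n = 2), was 269 times that in STO cells, 0.172 ± 0.0271 FPKM (SD, n = 3). The STO values rested on 13.1, 12.1 and 9.93 effective fragments, against 1846 and 1915 in the NSC samples, so the size of this ratio is only roughly known. On the log2(FPKM + 1) scale, which understates such a change, the difference was -5.34 with an SE of 0.052 (limma adjusted p = 5.39e-09), and 98.4% of all genes tested had a smaller absolute difference. Of the 2 transcripts, NM_001356412 was assigned 58.4% and 57.7% and NM_027406 the rest in the NSC samples. Both are listed at chr6:90500787-90549165, on the plus strand.

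Other markers of glia moved with Aldh1l1. The 6 astrocyte markers (Gfap, Aqp4, Aldoc, Slc1a3, S100b and Gja1) summed to 430 to 438 FPKM in the NSC samples and to 50.7 to 55.7 FPKM in the STO samples. Of these, 5 were lower and 1, Gja1, was higher in STO cells, and none was at 0 in all samples of a cell type. Gfap, the marker of mature astrocytes, was at 15.9 and 16.9 FPKM in the NSC samples and at 0.0163, 0 and 0 FPKM in the STO samples. The 4 oligodendrocyte markers summed to 120 to 122 FPKM in NSCs and to 0.961 to 1.14 FPKM in STO cells, with Mag listed at 0 in all STO samples. The 5 neuron markers summed to 118 FPKM in each NSC sample and to 12.3 to 12.8 FPKM in STO cells, with Rbfox3 and Snap25 listed at 0 in all STO samples and no change past the test in Tubb3. Most of the NSC sum was Map2, at 100 and 102 FPKM. In the NSC samples Tubb3 was at 9.25 and 8.14, Dcx at 4.87 and 4.56, Snap25 at 3.03 and 3.22 and Rbfox3 at 0.624 and 0.405 FPKM. The part of these cells in the Aldh1l1 difference was not tested, and in bulk RNA fewer cells of a type and less RNA per cell cannot be told apart.

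Aldh1l2, the mitochondrial counterpart, did not follow Aldh1l1. It was at 10.6 and 11.0 FPKM in the NSC samples and at 13.1, 12.9 and 13.7 FPKM in the STO samples, which did not overlap. The log2 difference was 0.27 with an SE of 0.053 (limma adjusted p = 0.00328). The ratio of Aldh1l2 to Aldh1l1 was 0.227 and 0.241 in the NSC samples and 64.7, 78.8 and 91.0 in the STO samples (exact two-sided permutation p = 0.1, the smallest possible, and 0.133 adjusted over 4 ratios). The mean log2 ratio differed by 8.37, or by 5.60 with 1 FPKM added to both genes. Aldh1l2 lies on the minus strand of chromosome 10 (chr10:82950192-82996885) and has 23 exons, like Aldh1l1.

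**Figure D3:**
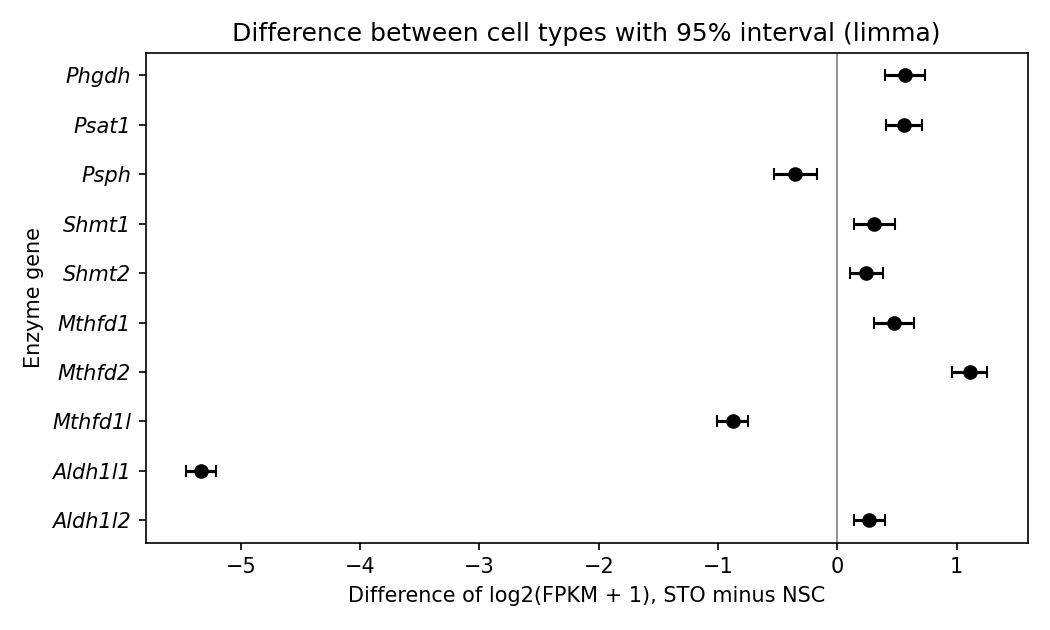
Difference of log2(FPKM + 1) between STO cells and NSCs for each enzyme gene, with the 95% interval of the limma fit. Of the 10 genes, 7 lie to the right of 0 by 0.24 to 1.11 and 3 to the left, with Aldh1l1 at -5.34.

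In NSCs the order of mean levels was Phgdh, Psat1, Shmt2, Aldh1l1, Mthfd1, Psph, Mthfd1l, Shmt1, Mthfd2 and Aldh1l2. In STO cells it was Phgdh, Psat1, Shmt2, Mthfd1, Mthfd2, Shmt1, Psph, Aldh1l2, Mthfd1l and Aldh1l1. Only Phgdh and Psat1 had overlapping samples among the neighbours of either order. The cytosolic folate enzymes (Shmt1, Mthfd1 and Aldh1l1) summed to 99.0 ± 1.86 FPKM (SD, n = 2) in NSCs and to 70.9 ± 3.73 FPKM (SD, n = 3) in STO cells. Aldh1l1 alone carried this fall, from a mean of 46.4 to 0.172 FPKM. Shmt1 (20.4 to 25.6 FPKM) and Mthfd1 (32.2 to 45.2 FPKM) were higher in STO cells. The mitochondrial enzymes (Shmt2, Mthfd2, Mthfd1l and Aldh1l2) summed to 115 ± 0.0734 FPKM (SD, n = 2) and to 139 ± 3.82 FPKM (SD, n = 3). Of these, Mthfd1l was lower in STO cells and the others were higher, so neither sum gives the direction of each gene.

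Promoter sequences of RefSeq (GRCm38.p6, 250 bases before to 50 after the start) were at hand for 9 of the 10 enzymes, all but Aldh1l2. Each matched a single place on the chromosome of its gene in mm9, and the other chromosomes were not searched. The 120 bases before the start are shown 5′ to 3′ for the 2 most abundant genes, the gene with the largest rise and the gene with the largest fall, with the letters CCAAT or their reverse complement in capitals. In mm9 they lie at chr3:98143893-98144012 (minus strand) for Phgdh, chr19:15999550-15999669 (minus strand) for Psat1, chr6:83267599-83267718 (minus strand) for Mthfd2 and chr6:90500667-90500786 (plus strand) for Aldh1l1.
Phgdh: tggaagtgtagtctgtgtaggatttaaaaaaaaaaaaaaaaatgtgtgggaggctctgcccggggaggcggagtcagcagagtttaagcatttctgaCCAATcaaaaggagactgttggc
Psat1: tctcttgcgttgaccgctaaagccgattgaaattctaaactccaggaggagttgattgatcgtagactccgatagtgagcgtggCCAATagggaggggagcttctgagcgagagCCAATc
Mthfd2: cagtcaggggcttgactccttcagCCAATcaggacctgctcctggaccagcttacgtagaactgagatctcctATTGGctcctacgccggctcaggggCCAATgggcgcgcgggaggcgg
Aldh1l1: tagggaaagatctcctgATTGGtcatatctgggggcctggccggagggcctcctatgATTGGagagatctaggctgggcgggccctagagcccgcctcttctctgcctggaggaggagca

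Each of these stretches ends where the listed transcript begins. That start lay 21 and 2 bases from the edge of the gene in GENCODE vM1 for Phgdh and Mthfd2. For Psat1 it lay 22278 bases and for Aldh1l1 64366 bases from that edge. The letters CCAAT, on either strand, occurred in the 300 bases of 7 of the 9 enzymes and in 37.4% of all 32851 promoters in the table, and they stood in genes of both directions, with 2 matches in the bases shown for Aldh1l1 and 3 for Mthfd2. The letters TGATGNAA, part of the element bound by the stress factor ATF4, occurred in no enzyme's window, against 4.0% of all promoters. E-box letters, CACGTG, were also in none of the 9, against 7.2%. GC box letters, GGGCGG, were in 6 of the 9, against 35.7%. For Psat1 the GC box letters lay only in another promoter entry, at the start of NM_001205339, and not in the promoter shown. That transcript was assigned none of the Psat1 signal. An enzyme was counted if any of its promoters matched, whereas the percentages are shares of single promoters, so these are not strictly comparable. These matches describe letters in a short window only.

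**Figure D4:**
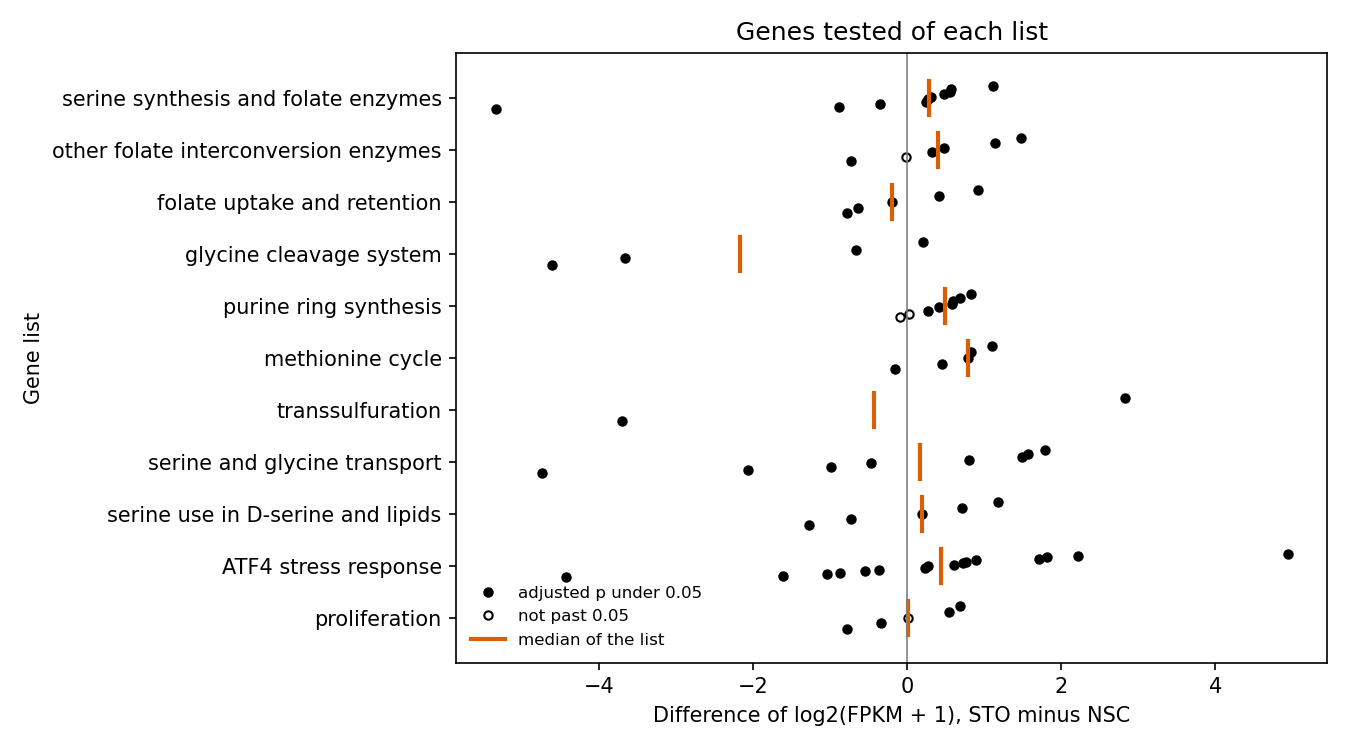
Difference of log2(FPKM + 1), STO minus NSC, of every gene tested in each list. Each point is 1 gene, filled where the limma adjusted p is under 0.05, and the orange line is the median of the list, which is 0.29 for the serine and folate enzymes and -2.16 for the glycine cleavage system.

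Lists of 75 further genes covered the neighbouring steps of the pathway, the ATF4 stress response (16 genes) and proliferation (5 genes), and 64 of the 75 passed the filter on low values. Of these 64, 37 were higher and 23 lower in STO cells, beside 41.9% and 43.7% of all genes tested. The same shares of 41.9% and 43.7% stand behind the counts of each list below, so such a count says little in itself. The median difference over all genes tested was -0.023.

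The glycine cleavage system, the mitochondrial complex that breaks glycine into CO2, ammonia and a one-carbon unit, was the list with the lowest median. Of its 4 genes, 3 were lower. Gldc, its decarboxylase, was at 26.4 and 25.9 FPKM in the NSC samples and at 0.141, 0.0715 and 0.123 FPKM in the STO samples (log2 difference -4.61, limma adjusted p = 7.27e-09). Amt, its aminomethyltransferase, was at 22.0 and 20.5 FPKM and at 0.870, 0.759 and 0.637 FPKM (log2 difference -3.66, limma adjusted p = 5.33e-08). Both were thus at low levels in STO cells, as Aldh1l1 was. Gcsh, the carrier protein, fell by 0.66 on the log2 scale. Dld, which other dehydrogenase complexes share, was higher by 0.21 (limma adjusted p = 0.033), a call that was lost without NSC replicate 1 or 2 or STO replicate 2 or 3.

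Among the other folate enzymes, 4 of 6 tested were higher and 1 was lower. Tyms, which uses the folate unit to make thymidylate, was at 9.21 and 9.43 FPKM in NSCs and at 29.0, 26.3 and 27.7 FPKM in STO cells (log2 difference 1.47). Mthfs fell by 0.73. Mthfd2l, the mitochondrial relative of Mthfd2, was at 8.29 and 10.7 FPKM in NSCs and at 8.28, 10.2 and 9.48 FPKM in STO cells, and did not pass the test (log2 difference -0.020, limma adjusted p = 0.887).

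Folate uptake and retention was split, with 2 of 5 genes tested higher and 3 lower. Slc25a32, the mitochondrial folate carrier, was higher by 0.92 and Fpgs, which adds the glutamate tail that keeps folate in cells, by 0.41. Ggh, which removes that tail, fell by 0.78, and Slc46a1, a proton-coupled folate transporter, fell by 0.64. The other lower gene, Slc19a1, had a log2 difference of -0.20. Over the alternative fits it was -0.28 to -0.036 and did not pass the test in each. The folate receptors Folr1 and Folr2 were at or under 0.0885 FPKM in every sample.

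Purine ring synthesis, which takes formyl units from folate, had 6 of 8 genes higher and none lower, where 41.9% and 43.7% of all genes tested were called. Its median absolute difference was 0.50, against 0.74 for all genes tested, and no gene of the list differed by 1 or more. The largest rises were those of Ppat, its first committed enzyme, by 0.83 and of Prps2 by 0.68. Gart and Atic, the enzymes that use formyltetrahydrofolate, were higher by 0.28 and 0.58. Prps1 (log2 difference 0.020) and Adsl (-0.097) did not pass the test. Without NSC replicate 2, Ppat (log2 difference 0.73, limma adjusted p = 0.0501) and Pfas (0.31, adjusted p = 0.094) no longer passed the test, nor did Gart when only its more abundant transcript was used (0.40, adjusted p = 0.063).

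In the methionine cycle, which the folate cycle feeds, 4 of 5 genes tested were higher. Mat2a and Mat2b, subunits of the S-adenosylmethionine synthetase of dividing cells, were higher by 0.83 and 1.10. Mtr, the folate-dependent methionine synthase, was at 4.69 and 3.77 FPKM in NSCs and at 8.14, 8.12 and 7.70 FPKM in STO cells. Its reductase Mtrr had a log2 difference of -0.16 (limma adjusted p = 0.046). That call was lost when any single sample of the 5 was left out (-0.21 to -0.11), with no filter, with a pseudocount of 0.1, with quantile normalization (-0.073) and with rescaling to equal sums (-0.023, adjusted p = 0.766).

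The transsulfuration genes turned in opposite directions. Cbs, which joins serine to homocysteine, was at 11.5 and 12.7 FPKM in the NSC samples and at 0.018, 0 and 0 FPKM in the STO samples (log2 difference -3.70, limma adjusted p = 1.61e-08). Cth, which splits the product to cysteine, was at 0.812 and 1.34 FPKM in the NSC samples and at 14.2, 13.7 and 12.9 FPKM in the STO samples (log2 difference 2.83, limma adjusted p = 1.3e-06). Neither cell type had both genes above 1.34 FPKM.

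Of 8 transporters of serine and glycine tested, 4 were higher and 4 lower. Of the lower ones, Slc6a9 lost its call when only its more abundant transcript was used (log2 difference -0.073, limma adjusted p = 0.307). Slc38a1, a sodium-coupled neutral amino acid transporter, was at 25.9 and 25.3 FPKM in the NSC samples and at 0, 0 and 0.00412 FPKM in the STO samples (log2 difference -4.73, limma adjusted p = 5.69e-09). Slc1a4, a neutral amino acid exchanger known for serine transport in brain, was at 42.7 and 44.4 FPKM and at 9.65, 9.23 and 9.99 FPKM (log2 difference -2.07, limma adjusted p = 1.89e-07). Slc1a5, its glutamine-carrying relative, was at 7.70 and 7.39 FPKM and at 28.7, 28.4 and 28.6 FPKM (log2 difference 1.79, limma adjusted p = 2e-07). Of the sideroflexins, Sfxn1, a mitochondrial serine carrier, fell by 0.99, while Sfxn2 was higher by 1.56 and Sfxn3 by 0.80.

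Among the genes that use serine for D-serine or lipids, 3 of 5 tested were higher and 2 lower. Sptlc2, a subunit of the enzyme that opens sphingolipid synthesis, was higher by 1.18 and Sptlc1 by 0.71. Srr, serine racemase, fell by 1.27, or by 0.39 when only its more abundant transcript was used, and Ptdss2, a phosphatidylserine synthase, fell by 0.72.

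ATF4 is the stress factor known to drive serine synthesis and mitochondrial folate genes. Of the 16 genes in its list 10 were higher and 6 lower, beside 41.9% and 43.7% of all genes tested. This list is not confined to genes that ATF4 drives, as it also holds Atf4 and the kinases Eif2ak1 to Eif2ak4. Eif2ak1, Eif2ak2 and Eif2ak4 were higher by 0.76, 1.82 and 0.73, and Eif2ak3 fell by 0.88. Atf4 itself was at 79.6 and 79.6 FPKM in the NSC samples and at 155, 139 and 154 FPKM in the STO samples (log2 difference 0.90, limma adjusted p = 2.85e-05), but the sign turned to -0.15 when only its more abundant transcript was used. Ddit3 was listed at 0 in both NSC samples and was at 30.5, 28.0 and 30.7 FPKM in the STO samples. Trib3 was higher by 2.22. Other genes of the list went down, Ddit4 by 4.43 and Sesn2 by 1.61. Ddit4 also differed between the NSC samples, at 192 and 114 FPKM. Asns, asparagine synthetase, was at 32.1 and 29.6 FPKM in NSCs and at 37.2, 36.2 and 38.2 FPKM in STO cells.

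Growth bears on folate demand, and the 5 proliferation genes did not move one way. Mki67 was higher by 0.69 and Top2a by 0.55, Pcna fell by 0.78 and Ccnb1 by 0.34, and Mcm2 had a difference of 0.010. These values stand beside the rises of Mthfd2, Tyms and Mthfd1, and their part in those rises was not tested.

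The genes whose pattern over the 5 samples was most like that of Phgdh were Man2b1, Pgghg and Zfp512b, with a root mean square difference of 0.011 to 0.018 in centred log2(FPKM + 1). For Mthfd2 they were Cmpk1, Wdr3 and Grb14 (0.015 to 0.024), and for Aldh1l1 they were Kcnc1, Bcas1 and Lratd1 (0.020 to 0.024). With 2 cell types, such likeness mostly reflects a difference of the same size.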

How the data were processed

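Total RNA of the 5 samples was made into stranded mRNA libraries and sequenced as paired ends. By the methods and labels, reads were trimmed, aligned to mm9 with Hisat2 (version given as 4.8.2) and quantified with Cufflinks 2.2.1 on RefSeq transcripts. The authors deposited FPKM values with the bounds of their confidence intervals and no read counts. FPKM divides by depth and length, and its estimate splits reads between overlapping transcripts. Effective fragments were computed here by treating the distance from a value to its upper bound as 2 standard deviations of a Poisson count. They are not read counts, as the bounds can hold other error of the estimate. For Psat1 they stayed at 1908 to 2062 over the 5 samples while its FPKM ran from 144 to 228. The spread between samples is not in them.

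Tables were joined by transcript and locus. RefSeq symbols (a table for GRCm38.p6, names only) matched 39946 of 40201 transcripts, and transcripts of a symbol with overlapping loci were summed. NSC and STO samples were grouped by title and compared with limma 3.58.1 in R 4.3.3 (trend, Benjamini-Hochberg) on log2(FPKM + 1) for 12293 genes, those whose mean reached 1 FPKM in either cell type. This fit was also run on simulated data with independent noise and few genes changed. These data differ from that setting, so the simulation does not show how many of the calls here hold. The 4 ratios were compared by an exact permutation test. Copies were sought with blastn 2.17.0 (at least 90% identity over 300 bases). The members and gene lists were chosen with earlier results of these data known. Named genes were all 10 enzymes, the 2 largest called rises and falls of each list without overlap of samples, genes listed at 0 in a cell type and, for 3 enzymes, the 3 most similar patterns. Some listed genes are not reported here. The further list genes named, the promoter letters and the ratios given without a test were chosen after values were seen. Python 3.11.15 with pandas 2.3.3 was used.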

Additional observations from a re-analysis of the deposited data

How the results depend on the processing

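The alternatives changed the pseudocount, the filter, the normalization, the scaling, the variance trend, the transcript used, the replicate block and the samples left out. All 10 enzymes kept their direction in all 12 alternative fits, and 116 of 120 values also kept their side of the threshold. The exceptions were Psph and Shmt1 without an NSC replicate, where the lone sample was assumed to vary like the STO samples (adjusted p from 0.0503 to 0.0695, and from 0.00036 to 0.035 for both genes in the other fits). Enzyme counts were 7 higher and 3 lower, or 6 to 7 and 2 to 3 over the samples left out, and 1 and 1 with an absolute log2 difference of at least 1, under which 2103 genes were higher and 2617 lower. With the replicate block, 4994 genes were higher and 5250 lower, against 5153 and 5375, and 7 and 3 enzymes. There the calls of Dld (0.16, limma adjusted p = 0.121), Mtrr, Ptdss1 and Slc3a2 were lost. No NSC sample shares a number with STO replicate 3, so the block fit took its differences from the other samples only. They equal those without STO replicate 3, and both fits moved the median of all genes by -0.0073. Deviations of same-numbered samples had correlations of 0.0075 and 0.061. With 2 NSC samples their deviations are exact opposites, so these values cannot show whether same-numbered samples share more than a number. STO samples summed to 0.886 of the NSC total, and rescaling to equal sums moved the median of all genes by 0.16 (5876 higher, 4669 lower). All 10 enzymes kept their direction there, with Psph at -0.19, Shmt1 at 0.49, Shmt2 at 0.42 and Aldh1l2 at 0.45.

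Of the 64 other genes, those whose sign turned were Atf4 with the most abundant transcript (-0.15), Prps1 with the replicate block or without STO replicate 3 (-0.020) and without NSC replicate 1 (-0.025, against 0.065 without NSC replicate 2), Mthfd2l (0.15) and Adsl (0.070) when rescaled, Mthfd2l without NSC replicate 2 (0.15) or STO replicate 1 (0.055), and Mcm2 without NSC replicate 1 (-0.068, against 0.088 without NSC replicate 2). In 25 of 768 values a call was lost and in 3 gained. The Shmt2 to Shmt1 ratio turned with the most abundant transcript (0.054) and was -0.14 to -0.012 over the samples left out. The other ratios kept their direction. The cause of these changes was not tested. Aldh1l1 in STO cells is limited by depth.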

Other observations

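Several genes of the lists were listed at 0, or nearly so, in both cell types. Bhmt2, Slc6a5, Slc7a10 and Sptlc3 were listed at 0 in all 5 samples, Mat1a and Bhmt in both NSC samples, and Slc38a5 in all 3 STO samples. An exact 0 in these tables can also be a failed estimate. The 4 microglia markers summed to at most 0.039 FPKM in the NSC samples and 0.394 FPKM in the STO samples, and the 4 endothelial markers to at most 0.510 and 0.576 FPKM.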
